A study of Mus musculus with 30 samples.

Results

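Lipoprotein lipase (Lpl) and 9 genes of lipid droplet formation and turnover were followed in microglia, the macrophages that reside in brain and spinal cord, of mice with a conditional deletion of the autophagy gene Atg7, of old mice and of wild types. The genes were taken by name: Lpl, the droplet coat proteins Plin2 and Plin3, the fatty acid binding proteins Fabp3 and Fabp5, the ester-forming enzymes Dgat1, Dgat2 and Soat1, the acyl-CoA synthetase Acsl1 and the triglyceride lipase Pnpla2. All 10 have 1 entry each among the 46078 genes of the count table, and all 10 passed the filter on low counts that left 13880 genes. RNA sequencing of 30 libraries gave 8 groups of C57BL/6 mice. KO mice were Atg7fl/fl Cx3cr1CreERT, in which tamoxifen removes the floxed Atg7 segment in cells that express Cx3cr1 (microglia, but also border macrophages and monocytes), and WT mice were Atg7wt/wt Cx3cr1CreERT2; both are labelled young, and both had received 4 mg of tamoxifen 3 times, 48 h apart. Old mice are labelled WT for Atg7; the tamoxifen protocol on their records is the one given for all libraries and does not name old mice separately, and their age in months is not given. Experimental autoimmune encephalomyelitis (EAE), a model of multiple sclerosis, was induced with recombinant mouse myelin oligodendrocyte glycoprotein and pertussis toxin at least 18 days after tamoxifen. The groups were KO, old and WT mice without EAE (naive, 4 libraries each), KO (4) and WT (3) mice at day 21 of EAE, and KO (4), old (3) and WT (4) mice at day 35. Microglia were sorted as live cells positive for CD11b, intermediate for CD45 and negative for Ly6G, by eYFP, or by both, and cells of female and male mice were pooled in equal parts, so a library is a pool and not a single animal.

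Lipoprotein lipase releases fatty acids from the triglycerides of lipoproteins. Inside a cell, fatty acids are carried by binding proteins, activated to acyl-CoA, and stored as triglyceride and cholesteryl ester in droplets whose surface perilipins cover; adipose triglyceride lipase, the product of Pnpla2, opens the stored triglyceride again. Autophagy can deliver droplets to lysosomes, a route called lipophagy. Microglia that take up myelin debris receive a large load of cholesterol and fatty acids, and Lpl is a known marker of microglia in ageing and demyelinating tissue.

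The libraries held between 4712803 and 11034565 counts, with a median of 6769302. Homeostatic microglial markers (10 genes, among them P2ry12 and Tmem119) were detected in every group, with summed levels between 9022 and 30917 counts per 1000000 (CPM, with library sizes scaled by the trimmed mean of M values) per library. Of 5 adipocyte markers, Lep and Cidec were at 0 in every group and no library reached a sum of 1 CPM. Atg7 over the whole gene averaged 20.2 CPM in naive KO libraries and 31.6 CPM in naive WT libraries (log2 fold change -0.65, edgeR adjusted p = 0.516), and the KO libraries were not lower at day 21 (32.8 CPM against 23.2 CPM in WT, log2 fold change 0.50) or day 35 (32.45 CPM against 22.55 CPM in WT, log2 fold change 0.53); a count per gene does not show whether the floxed segment is missing. The library day 35 WT 3 carries a WT title and a KO entry in the knockout status field, and was kept as WT, as in the authors' sample table. Libraries that stood apart were day 35 old 1, with a summed neutrophil marker level of 31757 CPM against 2411 and 688.6 CPM in the other day 35 old libraries, naive WT 3, with 16489 CPM against 1957 to 9142 CPM in its group, and naive KO 4, with 641 CPM against 2689 to 2980 CPM. Day 35 old 1 also had the highest monocyte marker (4785 CPM against 471.3 and 655 CPM) and border macrophage marker sums of its group (408.4 CPM). Its homeostatic sum was the lowest (9022 CPM against 22945 and 17536 CPM). Naive WT 3 had the highest monocyte (1917 CPM), and the lowest homeostatic (20564 CPM) and border macrophage (281.6 CPM) sums of its group. Naive KO 4 had the lowest monocyte (36.22 CPM) and border macrophage (35.49 CPM) sums of its group. In sorted pools, fewer cells of a type and less RNA per cell cannot be told apart.

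Levels per kilobase of exon put Pnpla2 (25.8 CPM per kb, mean of all libraries) and Soat1 (22.98) at the top, Plin2 (11.9) and Lpl (10.8) below them, and Fabp3 (1.97) last. The order of abundance was not the order of change. Between the highest and lowest group means, Fabp3 spanned 10.6-fold, Lpl 8.01-fold, Fabp5 7.95-fold and Dgat2 6.18-fold, whereas Soat1 spanned 1.504-fold and Pnpla2 1.24-fold. The 2 genes with the highest levels per length were thus the 2 with the narrowest spread.

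The comparisons of KO with WT ask how loss of Atg7 bears on these genes before and during EAE. In naive mice, none of the 10 genes was called (edgeR quasi-likelihood test, adjusted p under 0.05 by Benjamini-Hochberg over all genes tested), against 0.288% of all genes; 1 of them, Acsl1, had an unadjusted p under 0.05, and DESeq2 called 0. At day 21, Plin2 alone was called, higher in KO, where 9.18% of all genes were called higher. At day 35, Lpl and Fabp5 were called, both higher in KO, where 1.79% of all genes were called higher and the median log2 fold change was 0.75 over the 10 genes and -0.00 over all genes. With the library day 35 WT 3 read as KO, 1 of the 10 was called, Lpl. Leaving day 35 old 1 out of the model, which also sets the spread used for KO and WT, gave 1 call in naive mice (Acsl1, lower in KO; 0.6645% of all genes were called in that fit), 2 at day 21 (Plin2 and Plin3; 23.4% of all genes) and 3 at day 35 (Lpl, Plin2 and Fabp5; 5.435% of all genes); this alternative was chosen after the data were seen.

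The comparisons of old with WT mice ask the same of age. In naive mice 4 genes rose in old microglia, Lpl, Fabp3, Fabp5 and Soat1, against 5.03% of all genes called higher, and the median log2 fold change was 0.50 over the 10 genes. At day 35, 7 were called higher in old mice (Lpl, Plin2, Plin3, Fabp5, Dgat1, Dgat2 and Acsl1), against 7.51% of all genes. Without the library day 35 old 1, none of the 10 and no other gene was called in that comparison, and 2 day 35 old libraries remained.

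**Figure D1:**
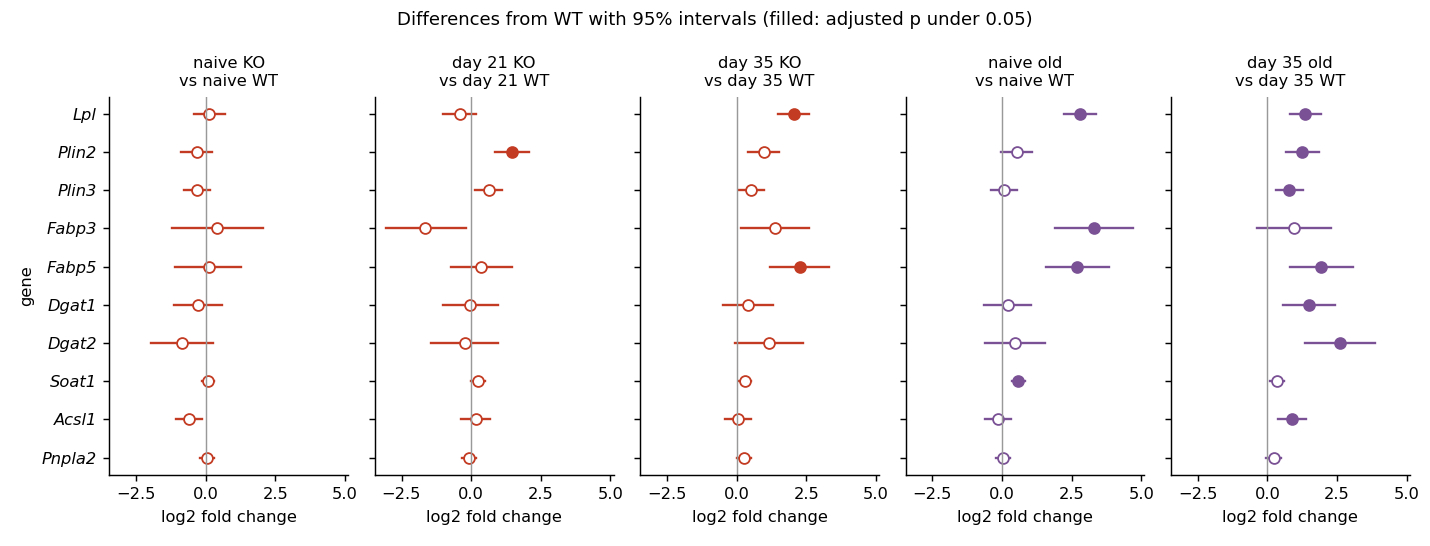
Log2 fold change of each of the 10 genes (rows) in KO against WT microglia at 3 times and in old against WT microglia at 2 times (columns), as edgeR estimates with 95% intervals; filled circles mark an adjusted p under 0.05. Lpl lies at 2.05 for KO and 1.37 for old mice at day 35, and Pnpla2 lies between -0.07 and 0.26 in all 5 columns.

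Lpl (chr8:68880491-68907448, plus strand, GRCm38) was higher in both KO and old microglia than in WT at day 35. In day 35 KO libraries it stood at 247, 229.7, 273 and 163.4 CPM, in day 35 old libraries at 131, 126.4 and 169.4 CPM, and in day 35 WT libraries at 43.0, 56.3, 49.6 and 71.0 CPM. Each KO and each old library lay above each WT library, and the KO and old ranges overlapped. Lpl rose in KO (log2 fold change 2.05, SE 0.267, adjusted p = 0.000218), and the call held in each of the 8 fits that left out a library and in all 9 other settings, with values from 1.76 to 2.20. In old mice at day 35 it rose as well (log2 fold change 1.37, SE 0.278, edgeR adjusted p = 0.0101). The library with high neutrophil, monocyte and border macrophage markers, day 35 old 1, had 130.7 CPM, within the range of the group. Without that library the estimate was 1.43 (edgeR adjusted p = 0.317), the same size but not called. Between KO and old at day 35 the difference was 0.68 (95% interval 0.11 to 1.26, adjusted p = 0.399), and 0 of the 10 genes were called in that comparison by edgeR or by DESeq2, against 0.00% of all genes by edgeR, while 4 (Lpl, Dgat1, Dgat2 and Acsl1) had an unadjusted p under 0.05.

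The course of Lpl over EAE differed between the genotypes. Naive KO libraries had 42.95, 52.01, 61.5 and 30.2 CPM, day 21 KO libraries 32.35, 34.7, 34.6 and 46.8 CPM and day 35 KO libraries the values above. The naive and day 21 ranges overlapped, and the day 35 range lay wholly above both. In WT, naive libraries had 29.1, 45.7, 65.2 and 31.5 CPM and day 21 libraries 61.5, 49.8 and 36.8 CPM, and all 3 WT ranges overlapped. In KO, Lpl at day 35 was higher than at day 21 by 2.62 (SE 0.275, adjusted p = 3.33e-07) and higher than in naive mice by 2.29 (SE 0.269, adjusted p = 4.85e-06) on the log2 scale. In these 2 comparisons 13.3% and 11.6% of all genes were called higher. In WT, Lpl moved by 0.16 between day 21 and day 35 (95% interval -0.43 to 0.75, adjusted p = 0.9845). The difference between the genotypes in the change from day 21 to day 35 was 2.46 (adjusted p = 0.00116) and held in all 15 fits without a library, in a test that called 2.67% of all genes. The difference in the change from naive to day 35 was 1.93 (adjusted p = 0.0246), in a test that called 0.367% of all genes; it was lost without naive KO 2, naive WT 3, day 35 WT 1 or day 35 WT 2, and with day 35 WT 3 read as KO (1.63). Without day 35 old 1 in the model, 5 of the 10 were called in this test (Lpl, Plin2, Plin3, Dgat2 and Acsl1), against 5.11% of all genes.

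Lpl was also set beside the clinical score. The score is given for each library, which is a pool, so n and SD below refer to libraries and not to single mice. The mean EAE score was 2.94 ± 0.125 (SD, n = 4) in day 21 KO mice, where Lpl was lowest of all groups at 37.1 ± 6.57 CPM, and 2.75 ± 0.204 (n = 4) in day 35 KO mice, where it averaged 228 ± 46.85 CPM. Day 35 old mice scored 2.83 ± 0.144 (n = 3) with a mean Lpl of 142.1 ± 23.7 CPM, and day 35 WT mice scored 1.25 ± 0.289 (n = 4) with 55.0 ± 11.97 CPM. Day 21 WT mice scored 2.67 ± 0.577 (n = 3) with 49.4 ± 12.3 CPM. At day 35 KO and old mice thus had both the higher scores and the higher Lpl. Day 21 KO and day 21 WT mice had high scores and low Lpl. Naive old mice, with a score of 0, had the highest Lpl of all, at 372.5, 276, 361 and 179.5 CPM against at most 65.2 CPM in naive WT libraries. These groups did not overlap, and Lpl rose in naive old mice by 2.80 (SE 0.276, adjusted p = 1.74e-06). In old mice Lpl was lower at day 35 than in naive mice (log2 fold change -1.06, SE 0.2815, adjusted p = 0.0120), the 1 gene of the 10 called in that comparison, where 8.03% of all genes were called lower. Without day 35 old 1, 3 genes were called there, against 19.3% of all genes in either direction, all lower: Lpl -1.01 (adjusted p = 0.03755), Plin2 -0.55 (adjusted p = 0.0495) and Dgat1. The difference between old and WT mice in the change from naive to day 35 was -1.43 (adjusted p = 0.122) with edgeR, where 0 of the 10 and 0.0432% of all genes were called, 6 of the 10 had an unadjusted p under 0.05, and DESeq2 called 1 (Lpl, -1.41, adjusted p = 0.0138).

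**Figure D2:**
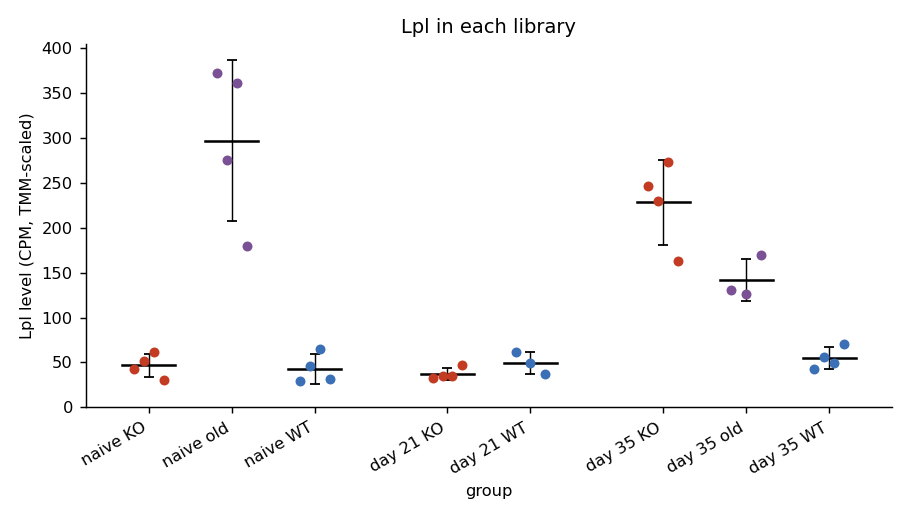
Lpl level (CPM, linear axis from 0) in each of the 30 libraries, by group; horizontal lines give the mean and whiskers the SD. Naive old (179.5 to 372.5 CPM), day 35 KO (163.4 to 273.2 CPM) and day 35 old libraries (126.4 to 169.4 CPM) lie above all libraries of the other 5 groups, which reach 71.0 CPM.

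From high to low, the group means of Lpl ran naive old, day 35 KO, day 35 old, day 35 WT, day 21 WT, naive KO, naive WT and day 21 KO. The 1 step between neighbours without overlap was the one from day 35 old (142.1 ± 23.7 CPM) to day 35 WT (55.0 ± 11.97 CPM). Summed neuronal markers were 67 ± 55.5 CPM in day 35 KO libraries and 24.6 ± 22.1 CPM in day 35 WT libraries (n = 4 each), and none of the markers was called. Within day 35 KO, the library with the least neuronal marker RNA, replicate 3, had the most Lpl. The library with the most neuronal marker RNA, replicate 4, had the least Lpl. Replicates 3 and 4 also had the lowest and highest monocyte, neutrophil and border macrophage sums of that group. Summed monocyte markers averaged 1105 ± 206.2 CPM in day 35 KO and 208.3 ± 93.3 CPM in day 35 WT libraries (n = 4 each). Summed neutrophil markers averaged 1704 ± 1435 CPM in day 35 KO and 679 ± 90.3 CPM in day 35 WT libraries, with 5 of 12 called higher in KO. Endothelial and mural markers (8 genes, 5 of them tested) summed to 86.2, 90.3, 86.9 and 80.2 CPM in day 35 KO, 82.1, 66.8 and 81.5 CPM in day 35 old and 56.5, 56.45, 57.1 and 57.4 CPM in day 35 WT libraries. They summed to 161, 98.25, 167.9 and 101.4 CPM in naive old and 81.45, 82.8, 75.1 and 66.3 CPM in naive WT libraries. Each of these KO and old sums lay above each WT sum of its day, and the same held for Lpl. It held for Fabp3 and Fabp5 too, and for Soat1 in old mice. Flt1, a receptor for vascular endothelial growth factor, was called higher and Pecam1 lower in all 3 comparisons, the day 35 old one resting on day 35 old 1 as above. Flt1 alone averaged 80.25 CPM of a mean sum of 132.1 CPM in naive old libraries. In naive WT libraries it averaged 5.14 CPM of 76.4 CPM, so the other markers together were not higher in naive old libraries. Cldn5 was at 0 in naive old libraries. The higher sum in naive old libraries thus followed Flt1 and not the list as a whole. Naive KO sums, from 55.2 to 57.42 CPM, lay below each naive WT sum, while Lpl of these 2 groups overlapped. The part of endothelial, mural and other cells in the differences of Lpl, Fabp3, Fabp5 and Soat1 was not tested.

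Genes whose pattern was most like that of Lpl were sought among 9538 genes with a mean of at least 5 CPM, by Pearson's r of log2 CPM over the 30 libraries, as a description. The closest were Igf1, insulin-like growth factor 1 (r = 0.937), Cspg4, the NG2 proteoglycan (0.934), and Plau, the urokinase plasminogen activator (0.912). Etl4 (0.893), Cacna1a (0.877), Pld3 (0.876), Cxcl14 (0.871) and Aplp2 (0.867) followed. Igf1 averaged 67.5 CPM in day 35 KO, 37.7 CPM in day 35 old and 8.77 CPM in day 35 WT libraries, and 64.1 CPM in naive old against 13.7 CPM in naive WT libraries. Cspg4 averaged 26, 16.5 and 3.59 CPM in day 35 KO, old and WT libraries. Both genes had the same 3 groups on top as Lpl, which is largely given by their choice for correlation with Lpl in these libraries. Of the other 9 lipid genes, Fabp3 (r = 0.754) and Fabp5 (0.707, rank 55 of 9538) came nearest, then Soat1 (0.626), while Plin2 (0.305), Plin3 (0.188) and Acsl1 (0.153) ranked lowest of the 9. Fabp3 itself, with a mean of 1.62 CPM, is below the minimum of 5 CPM and so is not one of the 9538. Libraries of 1 group share their condition, so the 30 points are not independent.

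**Figure D3:**
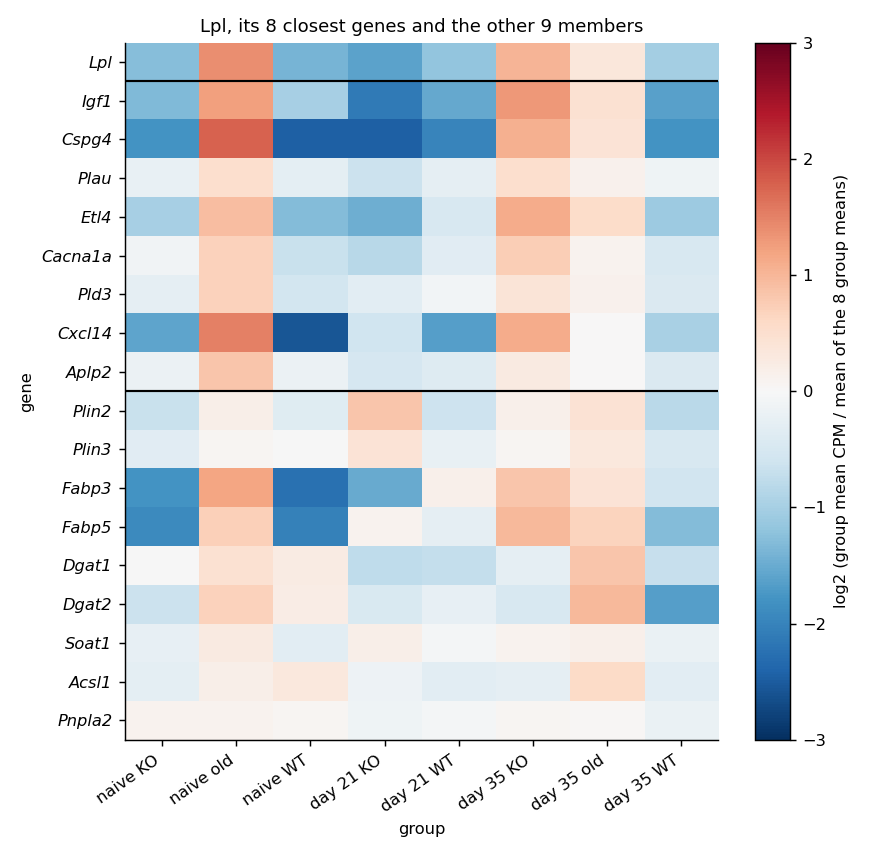
Group means of Lpl, of the 8 genes most like it and of the other 9 lipid genes (rows), each as the log2 ratio to the mean of its own 8 group means (colour scale); columns are the groups. Naive old, day 35 KO and day 35 old are above the gene's own mean in Lpl and in all 8 genes most like it. The same holds for Plin2, Plin3, Fabp3, Fabp5, Soat1 and Pnpla2, but not for Dgat1, Dgat2 and Acsl1. Pnpla2 is close to 0 in every group.

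Plin2 (chr4:86648386-86670060, minus strand), the perilipin that coats droplets outside adipose tissue, was highest in KO microglia at day 21. It stood at 75.2, 71.8, 73.6 and 74.97 CPM in day 21 KO libraries and at 30.8, 28.4 and 22.25 CPM in day 21 WT libraries. The groups were far apart, and the 4 KO libraries differed from each other by less than 4 CPM. Plin2 rose in KO at day 21 (log2 fold change 1.45, SE 0.297, adjusted p = 0.001425), in all 7 fits without a library and all 8 other settings. Relative to naive KO libraries, at 30.55, 29.2, 28.4 and 16.6 CPM, it had risen by 1.49 at day 21 (SE 0.269, adjusted p = 8.04e-05), in a comparison with 22.5% of all genes called higher and 4 of the 10 among them (Plin2, Plin3, Fabp5 and Soat1). In WT, day 21 against naive gave -0.28 (adjusted p = 0.538). The genotypes differed in this change by 1.77 (SE 0.400, adjusted p = 0.00866), in a test that called 9.68% of all genes, and the call held in all 15 fits without a library. Without day 35 old 1 in the model, Plin3 and Acsl1 were called in that test as well, against 16.2% of all genes.

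At day 35, Plin2 was at 46.05, 48.1, 42.8 and 49.3 CPM in KO libraries, 106, 26.9 and 38.1 CPM in old libraries and 26.9, 25.3, 22.4 and 20.2 CPM in WT libraries. All KO libraries lay above all WT libraries, and the old libraries spread across both. The KO difference was 0.97 (95% interval 0.42 to 1.53), with an adjusted p just above 0.05 (adjusted p = 0.0520); DESeq2 called it (adjusted p = 0.00759), and so did the fit from which day 35 old 1 had been removed (adjusted p = 0.00103), an alternative chosen after the data were seen. In old mice Plin2 was called higher (log2 fold change 1.26, SE 0.288, adjusted p = 0.0116), but the value rests on day 35 old 1, at 105.6 CPM, and was 0.45 (adjusted p = 0.471) without it. Naive WT 3 and naive KO 4 had, respectively, the highest and lowest neutrophil and monocyte marker sums of their groups. They likewise had the highest and lowest Plin2 of their groups. Plin2 was at 45.6 CPM in naive WT 3 against 27.4 to 29.4 CPM in the rest of naive WT. In naive KO 4 it was at 16.6 CPM against 28.4 to 30.55 CPM in the rest of naive KO.

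At day 21 the KO libraries also carried more marker RNA of monocytes and border macrophages, and less of homeostatic microglia. Summed monocyte markers were 2527, 3030, 2195 and 2553 CPM in day 21 KO and 495, 287 and 176.7 CPM in day 21 WT libraries, and 5 of 10 markers were called higher in KO. Border macrophage markers (1 of which, F13a1, is also on the monocyte list) summed to 391 ± 50.3 CPM (n = 4) in day 21 KO and 57.0 ± 35.98 CPM (n = 3) in day 21 WT libraries. T and NK cell markers summed to 21.2 ± 4.445 CPM in day 21 KO and 3.06 ± 2.0 CPM in day 21 WT libraries. Homeostatic markers fell in KO, 9 of 10 called, with sums of 9812, 9546, 10104 and 9486 CPM in day 21 KO and 17853, 18348 and 20323 CPM in day 21 WT libraries. Neutrophil markers summed to 552 ± 62.3 CPM in day 21 KO and 714 ± 13.4 CPM in day 21 WT libraries. Csf3r, at 474.6 CPM in day 21 KO and 693.5 CPM in day 21 WT libraries, made up most of both sums and was the 1 of the 12 called, lower in KO; the median log2 fold change of the 12 was 1.90. The part of these cells in the Plin2 difference was not tested.

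Plin3 (chr17:56277476-56292873, minus strand), a perilipin found on nascent droplets and in the cytosol, was lower than Plin2 per kilobase and varied less between groups. Day 21 KO libraries had 18.7, 19.1, 18.2 and 23.7 CPM and day 21 WT libraries 10.2, 15.1 and 13.2 CPM, without overlap. The KO difference missed the threshold (log2 fold change 0.63, SE 0.240, adjusted p = 0.0635), but was called by DESeq2 (adjusted p = 0.0477) and by the fit without day 35 old 1 (adjusted p = 0.0147). Against naive KO libraries, at 12, 14.3, 9.78 and 11.3 CPM, Plin3 rose at day 21 (log2 fold change 0.75, SE 0.221, adjusted p = 0.00714). Plin2 and Plin3 ran together over the 30 libraries (Pearson's r of log2 CPM 0.79, a description), and their group means ran in the same order, with day 21 KO highest and day 35 WT lowest. In day 35 old mice the call for Plin3 (0.78) rests on day 35 old 1, at 30.1 CPM against 14.1 and 11.6 CPM in the other old libraries, and the value was 0.26 (adjusted p = 0.720) without it.

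Because these 2 genes ran together, the 250 bases before their RefSeq transcription starts are shown, read from RefSeq on GRCm38.p6 (minus strand for both, printed 5′ to 3′ along the gene). Capitals mark matches to the nuclear receptor motif AGGTCA in Plin2 and to the GC box GGGCGG in Plin3, on either strand. The window of Plin2 is chr4:86670060-86670309 and that of Plin3 is chr17:56290512-56290761. The RefSeq start of Plin3 lies 2362 bases inside the GENCODE gene, which begins further upstream.
Plin2: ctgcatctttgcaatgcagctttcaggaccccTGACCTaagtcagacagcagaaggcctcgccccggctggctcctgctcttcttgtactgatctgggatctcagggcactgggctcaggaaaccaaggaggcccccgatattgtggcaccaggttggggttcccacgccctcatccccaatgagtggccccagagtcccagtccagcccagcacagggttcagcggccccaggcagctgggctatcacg
Plin3: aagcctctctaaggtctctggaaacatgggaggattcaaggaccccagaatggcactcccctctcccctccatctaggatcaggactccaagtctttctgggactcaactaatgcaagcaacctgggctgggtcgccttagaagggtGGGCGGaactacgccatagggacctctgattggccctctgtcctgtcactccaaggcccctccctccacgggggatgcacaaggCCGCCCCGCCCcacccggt
Plin2 had 1 AGGTCA match, 218 bases before the start and read there as TGACCT, and no GC box. Plin3 had 3 GC boxes, of which 2, starting 19 and 14 bases before the start, overlap, and no AGGTCA. Of 32851 RefSeq promoter windows of the same length, 14% held AGGTCA and 32.7% held GGGCGG. Neither window held CACGTG (in 6.02% of all windows) or TGANTCA (in 6.75%). The 2 windows thus shared none of the 4 motifs searched, each on both strands. The promoter table held 6 of the 10 genes and had no entry for Lpl, Fabp5, Dgat1 or Dgat2.

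Fabp5 (chr3:10012548-10016607, plus strand), the epidermal fatty acid binding protein, was higher at day 21 than in naive mice of either genotype, and higher in naive old than in naive WT mice. Day 35 KO libraries had 42.3, 46.3, 34.5 and 47.9 CPM, day 35 old libraries 55.7, 14.01 and 34.2 CPM and day 35 WT libraries 9.58, 9.28, 6.575 and 10.25 CPM. Each KO library held more than 3 times the highest WT value. Fabp5 rose in KO (log2 fold change 2.26, SE 0.514, adjusted p = 0.02545); the estimate stayed between 2.14 and 2.35 with any 1 library left out, but the adjusted p passed 0.05 in 5 of those 8 fits (those without KO replicates 2 and 3 and those without WT replicates 1, 2 and 4) and reached 0.0890. With day 35 WT 3 read as KO it was 1.87 (adjusted p = 0.1205). Within day 35 KO, Fabp5 was lowest in replicate 3 and highest in replicate 4, the libraries with the least and the most neuronal marker RNA. These 2 libraries also had the lowest and highest neutrophil sums (665.3 and 3827 CPM) and monocyte sums (959.9 and 1404 CPM). The same held for border macrophage markers (53.51 and 109.7 CPM), while their homeostatic microglial sums were the highest and lowest (18810 and 12446 CPM). Astrocyte and oligodendrocyte sums were likewise lowest and highest there. The part of these RNAs in the difference was not tested.

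Over the course of EAE, Fabp5 was the 1 gene of the 10 called at day 21 in both genotypes. Day 21 KO libraries had 18.8, 20.8, 23.7 and 30.1 CPM, against 5.045, 7.54, 9.135 and 1.47 CPM in naive KO libraries. Day 21 WT libraries had 16.75, 20.9 and 16.6 CPM, against 2.50, 2.35, 14.96 and 1.71 CPM in naive WT libraries. Each day 21 library was above each naive library of its genotype. Fabp5 rose in KO at day 21 (log2 fold change 1.99, SE 0.527, adjusted p = 0.00387) and in WT (log2 fold change 1.71, SE 0.573, adjusted p = 0.0352), where 9.51% of all genes were called higher and 2 of the 10 among them, Fabp3 and Fabp5. The WT value depends on naive WT 3: its 14.96 CPM stood against 1.71 to 2.50 CPM in the rest of the group, and without it the log2 fold change was 3.05. The WT call was lost in the other 6 fits without a library. Without day 35 old 1 in the model, Dgat1 and Acsl1 were called in WT too, lower at day 21, where 25.01% of all genes were called in either direction. The change at day 21 was 0.27 larger in KO than in WT on the log2 scale (95% interval -1.35 to 1.89), so the size of the genotype difference was not resolved. At day 35 Fabp5 in KO remained above naive KO (log2 fold change 2.86, SE 0.528, adjusted p = 0.000715), 1 of 5 genes called higher there (Lpl, Plin2, Fabp3, Fabp5 and Soat1). In WT at day 35 the value against naive was 0.70 (adjusted p = 0.406).

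In naive old libraries Fabp5 reached 42.7, 35.4, 50.5 and 15.4 CPM, all above the naive WT values given above, though the lowest old library and naive WT 3 were nearly equal. It rose in old mice (log2 fold change 2.71, SE 0.544, adjusted p = 0.00324). In old mice at day 35 it was called higher than in WT (log2 fold change 1.94, SE 0.539, adjusted p = 0.0262); without day 35 old 1, which had the highest Fabp5 of all libraries, the value was 1.42 (adjusted p = 0.462).

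Fabp3 (chr4:130308595-130315463, plus strand), the heart type binding protein, was sparse: no library held more than 38 counts of it. Naive old libraries had 38, 22, 24 and 10 counts, against 0, 7, 5 and 4 counts in naive KO and 5, 1, 0 and 3 counts in naive WT libraries. The naive old range lay above both. Fabp3 rose in naive old mice (log2 fold change 3.31, SE 0.692, adjusted p = 0.00316), in all 8 fits without a library. Naive KO libraries had 0, 0.677, 0.643 and 0.587 CPM, day 21 KO libraries 0, 1.11, 0.601 and 0.593 CPM and day 35 KO libraries 2.525, 2.55, 3.94 and 2.73 CPM. Day 35 stood above both earlier times. In KO it rose at day 35 against day 21 (log2 fold change 2.34, SE 0.651, adjusted p = 0.00936) and against naive (log2 fold change 2.55, SE 0.640, adjusted p = 0.00588), and was with Lpl 1 of the 2 genes called between day 21 and day 35.

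In WT the order was different: Fabp3 was at 1.84, 2.49 and 1.12 CPM at day 21 and 1.29, 0.152, 1.25 and 1.73 CPM at day 35. It rose in WT at day 21 against naive (log2 fold change 2.26, SE 0.746, adjusted p = 0.02945), a call kept in 2 of 7 fits without a library (those without naive WT 1 and day 21 WT 3). At day 21 every KO library was below every WT library, with a difference of -1.64 (95% interval -3.07 to -0.20, adjusted p = 0.102; DESeq2 adjusted p = 0.0478). At day 35 every KO library was above every WT library (1.39, 95% interval 0.17 to 2.60, adjusted p = 0.199). The turn between day 21 and day 35 was 3.02 larger in KO than in WT (adjusted p = 0.0677 with edgeR, 0.0116 with DESeq2). Fabp3 overlaps Zcchc17 and Gm10570 on the opposite strand, and as the strand setting of the counting is not given in the sources used here, reads of these genes cannot be told apart.

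**Figure D4:**
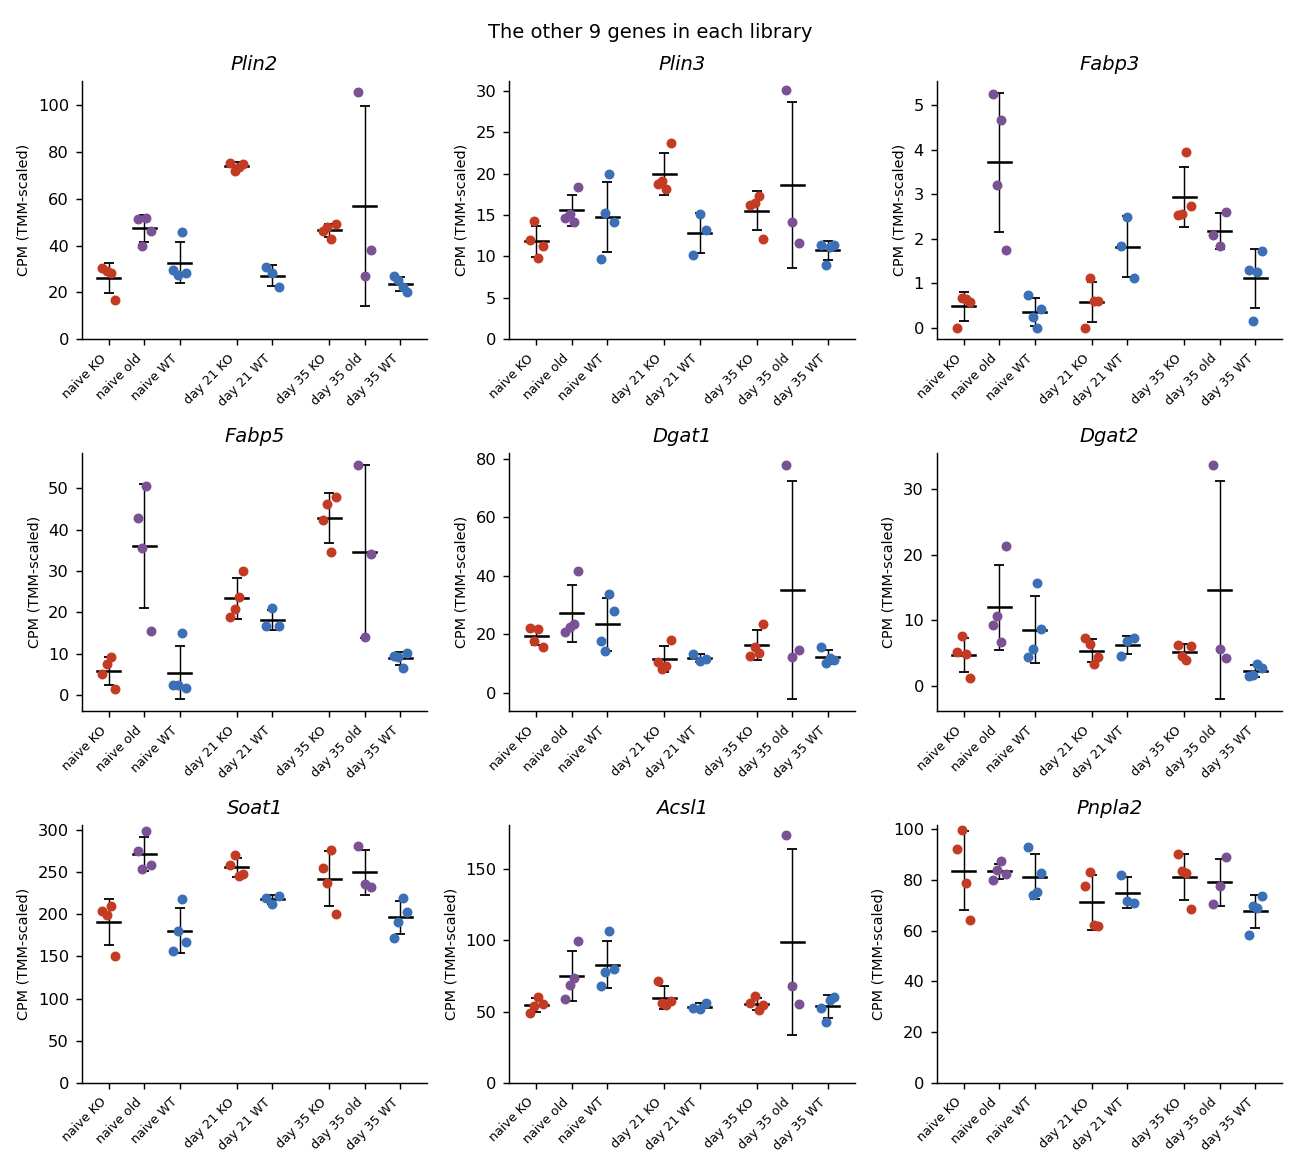
Level of the other 9 genes (CPM, linear axes) in each of the 30 libraries, by group; horizontal lines give the mean and whiskers the SD. The 4 day 21 KO libraries lie between 71.8 and 75.2 CPM of Plin2. Day 35 old 1 lies above the rest of its group in Plin2 (105.6 CPM), Plin3, Fabp5, Dgat1, Dgat2, Soat1 and Acsl1.

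Dgat1, Dgat2 and Acsl1, which make triglyceride and the acyl-CoA it is made from, had a common feature in that single libraries carried their highest values. Dgat1 (chr15:76502015-76511953, minus strand), which esterifies diglyceride, was at 78.05, 12.3 and 14.8 CPM in day 35 old and 15.7, 10.2, 11.9 and 11.1 CPM in day 35 WT libraries. Dgat2 (chr7:99153658-99182719, minus strand), a second enzyme of the same step, was at 33.6, 5.73 and 4.34 CPM in day 35 old and 1.57, 1.67, 3.44 and 2.74 CPM in day 35 WT libraries. Acsl1 (chr8:46471037-46536051, plus strand) was at 174, 67.8 and 55 CPM in day 35 old and 52.8, 42.6, 58.4 and 60.3 CPM in day 35 WT libraries. In all 3 genes the first old library, day 35 old 1, was above every other library of the series. For Dgat1 and Acsl1 the other old libraries fell at or near the WT range. Day 35 old 1 was likewise the highest library of the series for Plin2 (105.6 CPM), Plin3 (30.1 CPM) and Fabp5 (55.7 CPM). The calls in old mice, 1.51 for Dgat1, 2.61 for Dgat2 and 0.88 for Acsl1 (adjusted p = 0.0375, 0.0116 and 0.0262 by edgeR), became 0.14 (adjusted p = 0.9195), 1.10 (adjusted p = 0.508) and 0.20 (adjusted p = 0.723) without it.

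In other groups too, the highest value of Dgat1 often fell in the library with the highest neutrophil marker sum. In 7 of the 8 groups the library with the highest neutrophil sum was also the one with the highest Dgat1. The exception was day 21 WT, where the sums were 718, 725 and 699 CPM. The highest sums were also close in day 21 KO, at 604.8 and 603 CPM. In day 21 KO and day 35 WT, Csf3r made up most of the sum. For Dgat2 and Acsl1 the highest level fell in the library with the highest neutrophil sum in 3 groups. These were naive old, naive WT and day 35 old, the groups with the largest sums. Among the other genes it was so in 6 groups for Plin3 and in 5 each for Plin2 and Fabp5. For Lpl and Soat1 it was so in 2 groups, for Fabp3 in 1 and for Pnpla2 in 0. Matches with the highest monocyte sum were found in 5 groups for Dgat1 and in 4 each for Plin2, Fabp5, Soat1 and Acsl1. They were found in 3 each for Lpl, Plin3 and Dgat2, in 2 for Pnpla2 and in 1 for Fabp3. With border macrophage sums, Dgat1 matched in 5 groups, Plin2 in 4, Pnpla2 in 3, Lpl in 1 and the others in 2 each. How often other genes match was not counted, and with 3 or 4 libraries a group some matches arise by chance. In naive WT, the neutrophil sums were 1957, 7818, 16489 and 9142 CPM in replicates 1 to 4, and Dgat2 was 4.41, 5.63, 15.7 and 8.70 CPM. Both were highest in replicate 3. S100a9, Ngp and Ltf were the most abundant neutrophil markers in day 35 old libraries, at means of 2862, 2849 and 2287 CPM against 6.67, 6.02 and 3.70 CPM in day 35 WT libraries; Csf3r, which was at 543 CPM in day 35 old and 656 CPM in day 35 WT libraries, made up most of the sum where it was low. The gate on CD11b and CD45 left out Ly6G-positive cells, and the labels do not say which libraries were sorted by eYFP alone. The part of this RNA in the levels of the 10 genes was not tested.

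**Figure D5:**
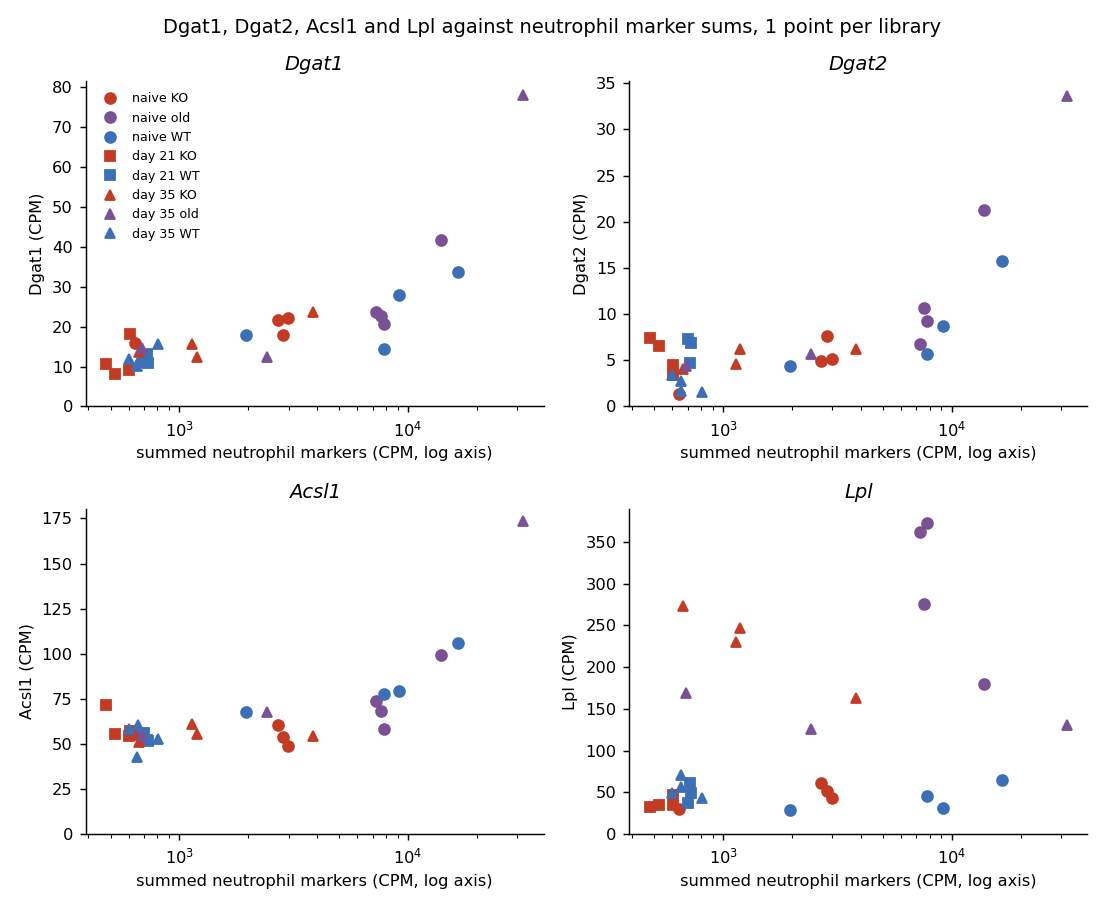
Level of Dgat1, Dgat2, Acsl1 and Lpl (CPM, linear axis from 0) against the summed level of 12 neutrophil markers (CPM, log axis), with 1 point per library; colour gives KO, old or WT and the shape gives naive, day 21 or day 35. Day 35 old 1, at 31757 CPM of neutrophil markers, is the highest point for Dgat1 (78.05 CPM), Dgat2 (33.6 CPM) and Acsl1 (173.8 CPM), while the highest Lpl values are at lower neutrophil sums.

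Between KO and WT, Acsl1 in naive mice was at 48.95, 53.9, 60.2 and 55.3 CPM in KO and 67.6, 77.6, 106 and 79.5 CPM in WT libraries. Every KO library was below every WT library. The difference of -0.60 (95% interval -1.08 to -0.12) was not called (edgeR adjusted p = 0.445), but was called in the fit without day 35 old 1 (adjusted p = 0.0302). Neutrophil sums were 2289 ± 1105 CPM in naive KO and 8851 ± 5972 CPM in naive WT libraries (n = 4 each). By library, naive WT 1, at 1957 CPM, was below naive KO 1 to 3, at 2689 to 2980 CPM. The other naive WT libraries were above all naive KO libraries. The part of neutrophil RNA in the Acsl1 difference was not tested. Dgat2 at day 35 was at 6.24, 4.64, 4.08 and 6.21 CPM in KO libraries, all above WT (1.17, 95% interval -0.05 to 2.38, adjusted p = 0.278). Dgat1 at day 35 differed by 0.42 between KO and WT (95% interval -0.47 to 1.31). Along the course in WT, Dgat2 fell at day 35 against naive (log2 fold change -1.87, SE 0.583, adjusted p = 0.0265), the 1 gene of the 10 called there, where 10.7% of all genes were called lower. The neutrophil sum was 679 ± 90.3 CPM in day 35 WT against 8851 ± 5972 CPM in naive WT libraries, and without naive WT 3, or without day 35 WT 1 or 2, the Dgat2 call was lost (estimates from -2.11 to -1.41). Without day 35 old 1 in the model, Plin2, Dgat1 and Acsl1 were also called lower there, against 22.7% of all genes called in either direction. Between day 35 WT and day 21 WT none of the 10 genes was called by edgeR or by DESeq2, 1 (Dgat2) had an unadjusted p under 0.05, and 0.0648% of all genes were called by edgeR.

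Soat1 (chr1:156424525-156474331, minus strand), the enzyme that esterifies cholesterol for storage, moved little. It was at 275.5, 253, 299 and 258 CPM in naive old and 156.3, 180.4, 218 and 167.5 CPM in naive WT libraries, without overlap, and rose in old mice (log2 fold change 0.59, SE 0.111, adjusted p = 0.00130), in all 8 fits without a library. Day 21 KO libraries were at 259, 270.5, 245 and 248 CPM and naive KO libraries at 204.4, 199, 209.9 and 151 CPM, again apart, and Soat1 rose in KO at day 21 (log2 fold change 0.42, SE 0.111, adjusted p = 0.00292) and at day 35 (log2 fold change 0.34, SE 0.111, adjusted p = 0.0274). The day 35 call was lost without naive KO 4, day 35 KO 1 or day 35 KO 3. KO against WT gave 0.23 at day 21 (95% interval -0.01 to 0.48) and 0.30 at day 35 (95% interval 0.08 to 0.53), neither called. Its day 35 values were 254, 237, 277 and 200.6 CPM in KO and 172.3, 191, 219 and 202.5 CPM in WT libraries, with overlap. Among the 10 genes the closest partner of Soat1 was Fabp5 (Pearson's r of log2 CPM 0.84 over the 30 libraries). Soat1 overlaps Gm37648 on the opposite strand.

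Pnpla2 (chr7:141455198-141460743, plus strand) was called in none of the comparisons between groups. Its group means ran between 67.6 ± 6.59 CPM in day 35 WT and 83.7 ± 15.7 CPM in naive KO libraries (n = 4 each), and every pair of neighbours in the order of groups overlapped. The 95% intervals of the KO and WT difference on the log2 scale were -0.21 to 0.29 in naive mice, -0.34 to 0.19 at day 21 and 0.01 to 0.51 at day 35. At day 35 Pnpla2 was at 90.0, 83.4, 82.7 and 68.4 CPM in KO and 58.2, 69.5, 69.0 and 73.6 CPM in WT libraries, with overlap, and the estimate was 0.26 (adjusted p = 0.235), beside 2.05 for Lpl.

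The KO libraries were also set against the old ones. In naive mice 5 of the 10 genes were lower in KO than in old microglia (Lpl, Plin2, Fabp3, Fabp5 and Soat1), where 6.51% of all genes were called lower. The log2 fold changes were -2.67 for Lpl, -2.89 for Fabp3, -2.61 for Fabp5, -0.85 for Plin2 and -0.51 for Soat1, and that of Plin2 was lost in 6 of 8 fits without a library. At day 35, where none of the 10 was called, the values for Plin2 (-0.28), Fabp5 (0.31) and Fabp3 (0.43) had intervals that reached across 0. Those for Lpl (0.68), Dgat1 (-1.08), Dgat2 (-1.44) and Acsl1 (-0.83) had intervals that did not. Without day 35 old 1, the estimates were 0.63 for Lpl, 0.28 for Dgat1, 0.07 for Dgat2 and -0.15 for Acsl1. These comparisons share libraries with those against WT above.

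Around the 10 genes, 130 further genes of lipid handling in 7 lists, chosen with earlier results of these data known, were counted, of which 99 were tested. KO against WT called none of them in naive mice, 13 higher and 8 lower at day 21 (21.2% of those tested; of all genes, 9.18% were called higher and 9.86% lower), and 4 higher and 1 lower at day 35 (5.05%, against 2.62%). In old against WT, 6 were higher and 0 lower in naive mice (6.06%, against 8.18%), and 16 were higher and 3 lower at day 35 (19.2%, against 9.45%). The share called was near that of all genes at day 21 in KO and in naive old mice. At day 35 it was above that of all genes in both comparisons, in KO on few calls. The day 35 old share rests on day 35 old 1, as no gene was called without that library.

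At day 21, by list, the calls in KO against WT were as follows. In the list of Lpl regulators and lipoprotein uptake, 5 of 14 tested genes rose and 0 fell, against a median log2 fold change of 0.34 for the list and 0.00 for all genes. Apoc2, the cofactor that activates lipoprotein lipase, averaged 43.2 CPM in day 21 KO and 3.78 CPM in day 21 WT libraries (log2 fold change 3.56, SE 0.681, adjusted p = 0.000864). Cd36, a fatty acid and lipoprotein receptor, rose by 1.71 (adjusted p = 0.0131), Scarb1, the HDL receptor, by 0.57 (adjusted p = 0.00412) and Furin, a protease that cleaves lipoprotein lipase, by 0.61 (adjusted p = 0.000475). Among other lipases and ester hydrolases 2 of 11 rose and 3 fell: Mgll, monoglyceride lipase, averaged 11.99 CPM in day 21 KO and 35.95 CPM in day 21 WT libraries (log2 fold change -1.57, SE 0.179, adjusted p = 1.35e-06), and Abhd6, another monoglyceride lipase, fell by 1.21 on the log2 scale. Of the other droplet proteins, 2 of 16 rose (Rnf213, and Vps13c, a lipid transfer protein, by 0.69) and 1 fell (Spast, -0.33). Of the regulators, Nr1h3, the oxysterol receptor LXR alpha, rose by 1.93, Ppargc1b rose by 0.87, and Tfe3 fell by 0.32.

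At day 35, 5 of the 99 tested genes were called in KO against WT. Apoc1, an apolipoprotein of the same lipoproteins, averaged 27.6 CPM in day 35 KO and 2.91 CPM in day 35 WT libraries (log2 fold change 3.23, SE 0.545, adjusted p = 0.00286). Nceh1, which hydrolyses cholesteryl ester, rose by 1.00 (adjusted p = 0.0395), Dbi, the acyl-CoA binding protein, by 0.70 (adjusted p = 0.0349) and Hif1a, the oxygen-sensing transcription factor, by 0.46 (adjusted p = 0.0439). Tfe3, a regulator of lysosome and autophagy genes, fell by 0.30 (adjusted p = 0.0439). None of the 20 genes of fatty acid oxidation, the 16 other droplet proteins or the 16 other genes of ester synthesis was called. In naive old mice the called genes included Nceh1 (1.31), Srebf2, a regulator of sterol synthesis (0.74), Hif1a (0.68), Echs1, an enzyme of fatty acid oxidation (0.61), and the lysosomal acid lipase Lipa (0.53). In old mice at day 35 no gene was called without day 35 old 1; with it, the genes called included G0s2, an inhibitor of Pnpla2 (5.36), and Abhd5, its activator (1.85).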

How the data were processed

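Microglial RNA from 30 libraries in 8 groups had been prepared with the SMARTer Stranded Total RNA Pico kit and sequenced, per the labels. Per the submitters' processing notes, CASAVA, bcl2fastq and STAR were used with the mouse genome GRCm38; tool versions, counter, strand option and annotation were not given in the sources used here. Raw counts per Ensembl gene were deposited by the authors for 32 columns, of which 2 belong to no library described here and were not used. A sample table deposited by the authors gives a clinical EAE score for each library. Neither was normalised. Count columns were joined to libraries through the plate well in the authors' sample table (30 of 30 titles matched with wells counted down columns, 2 with wells counted along rows). Ensembl identifiers were given symbols from GENCODE M21, which named 45229 of 46078 genes; the 849 others held 0.0552% of counts.

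Low genes were removed by filterByExpr (at least 10 counts, 15 in total), and the rest were scaled by the trimmed mean of M values and tested with the quasi-likelihood test of edgeR 4.0.16 in R 4.3.3 (limma 3.58.1) in 1 model of all 8 groups with 22 residual degrees of freedom; p-values were adjusted by Benjamini-Hochberg over 13880 genes. The alternatives were DESeq2 1.42.0, other scaling, no filter, a block, groups compared alone, the library with conflicting labels as KO, and each library left out. Replicates were numbered in accession order, and the labels do not say that libraries come from separate mice, so p-values measure the spread between these libraries, which may be technical.

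The 10 genes and all gene and marker lists were chosen with earlier results of these data known. For each pathway list and comparison, the text names the called genes among the 4 of lowest p; other names say so, and some genes are not reported here. The depth of 4712803 to 11034565 counts sets the precision of sparse genes such as Fabp3. The test was checked on simulated counts.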

Additional observations from a re-analysis of the deposited data

Results flagged for a closer look

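In 9 cases 1 library of a group of 4 stood apart from the other 3 by more than the 95% critical value of Dixon's ratio. As 60 groups of 4 were examined and chance marks about 1 in 20, some of these are what chance gives; groups of 3 were not examined. Several lie in libraries with extreme neutrophil and monocyte marker sums; the neutrophil sums are given here. Naive WT 3 (sum 16489 CPM) stood high in Plin2 at 45.61 CPM and in Fabp5 at 14.96 CPM. Naive KO 4 (641 CPM) stood low in Plin2 at 16.57 CPM, and naive old 4 (13853 CPM) stood high in Dgat1 at 41.6 CPM. Day 21 KO 4 stood high in Lpl at 46.82 CPM and in Plin3 at 23.71 CPM. Day 35 WT 2 stood low in Plin3 at 8.976 CPM. Fabp3 stood low in naive KO 1, at 0 CPM, and high in day 35 KO 3, at 3.943 CPM, both on few counts.

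In 3 cases the change over EAE differed between KO and WT by edgeR's test of the difference itself. For Plin2 the change between naive and day 21 was larger in KO by 1.77 on the log2 scale (adjusted p = 0.00866). For Lpl the change between naive and day 35 was larger in KO by 1.93 (adjusted p = 0.0246), and the change between day 21 and day 35 by 2.46 (adjusted p = 0.00116).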

How the results depend on the processing

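Of 37 calls of the 10 genes, 22 were kept in every fit that left out 1 library and 20 in every other alternative. The Lpl calls in KO at day 35 and in naive old mice, and the Plin2 call in KO at day 21, were kept in all fits run. The numbers below count the genes called of the 10, beside the value reported.

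Without a filter on low counts, 1 gene was called in day 35 KO against WT, 1 in day 21 WT against naive WT, 0 in day 35 WT against naive WT, 3 in day 35 KO against naive KO and 4 in day 35 old against WT. With groups compared alone, 3 were called in day 21 KO against WT, 3 in day 35 WT against naive WT, 1 in day 35 WT against day 21 WT, 4 in day 35 KO against day 21 KO, 0 in day 35 old against WT and against naive old, and 3, 2 and 3 in the genotype differences by day 21, by day 35 and between day 21 and day 35. With the library of conflicting labels as KO, 1 was called in day 35 KO against WT, 4 in day 35 old against WT and 0 in the genotype difference by day 35. DESeq2 called 3 in day 21 KO against WT, 2 in day 35 WT against naive WT, 2 in each of the 3 genotype differences and 1 in the age difference by day 35. With day 35 old 1 left out of every fit, chosen after the data were seen, 1 was called in naive KO against WT, 2 in day 21 KO against WT, 4 in day 21 WT and 4 in day 35 WT against naive WT, and 3, 5 and 2 in the genotype differences. The shares of all genes called moved too. With groups compared alone they were 35.2% against 19.03% as reported in day 21 KO against WT, 8.28% against 2.67% in the genotype difference between day 21 and day 35, and 1.45% against 18.4% in day 35 old against naive old. For the genotype difference by day 35 they were 0.916% with groups alone, 3.445% with DESeq2 and 5.11% without day 35 old 1, against 0.367% as reported. The cause of these shifts was not tested.

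Labels share i5 index numbers between groups. A replicate block by i5 index gave 1 call in day 21 WT against naive WT and 3 in day 35 old against WT. Over 98 pairs sharing an index the correlation of deviations ran from -0.511 to 0.334, so the numbers were not taken as a pairing.

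With 1 library left out, counts ran from 1 to 1 in day 21 KO against WT, 1 to 2 in day 35 KO against WT, 0 to 2 in day 21 WT and in day 35 WT against naive WT, 3 to 5 in day 35 KO against naive KO, 0 to 8 in day 35 old against WT, 1 to 3 in day 35 old against naive old, 0 to 1 in day 35 KO against old, 1 to 2 in the genotype difference by day 21, 0 to 1 in that by day 35 and 0 to 2 in the age difference. The 0 in day 35 old against WT came without day 35 old 1. In day 35 old against naive old, 2 values that were not called changed sign and were called without that library, Plin2 at -0.55 (edgeR adjusted p = 0.0495) and Dgat1 at -1.0 (adjusted p = 0.0359); over all fits without 1 library they ran from -0.55 to 0.60 for Plin2 and from -1.0 to 0.77 for Dgat1. Depth limits Fabp3, with at most 38 counts in a library, and 3 or 4 libraries a group limit every comparison.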
